A study of Mus musculus with 56 samples.

Results

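The 10 genes described here set the pace of the G1 phase of the cell cycle, and their expression was followed across blood progenitors of Tet2-/-Flt3ITD and wild-type mice. They are the cyclin-dependent kinase inhibitors Cdkn1a, Cdkn1b, Cdkn2c and Cdkn2d, the D-type cyclins Ccnd1, Ccnd2 and Ccnd3, the kinases Cdk4 and Cdk6, and the retinoblastoma gene Rb1. They were taken from a table of log2 expression values by matching its Entrez gene IDs to these symbols. All 10 were found among the 24424 genes of the table, and all 10 passed the filter on low values that left 12133 genes for testing. The rule that names them uses no measured value, but the set was proposed with earlier results of these data known.

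The values come from RNA-seq of sorted bone marrow cells of C57BL/6 mice. T2F3 mice lack Tet2, an enzyme that oxidizes 5-methylcytosine, and carry an internal tandem duplication of the receptor tyrosine kinase gene Flt3 (genotype Tet2-/-Flt3ITD), while WT mice are labelled wild-type. Multipotent progenitors (MPP) were sorted as lineage-negative cells with Sca-1, c-Kit and CD48 but no CD150, and granulocyte-macrophage progenitors (GMP) as lineage-negative, Sca-1-negative cells with c-Kit, CD34 and the Fc-gamma receptors CD16 and CD32. There were 3 T2F3 MPP, 4 WT MPP, 3 T2F3 GMP and 5 WT GMP libraries, named here by group and replicate number. The labels give no age, sex, Flt3ITD zygosity or deletion strategy for Tet2, and they do not say whether each library came from its own animal, so the p-values rest on the spread among libraries, which may be technical. Both alleles are present together in every T2F3 library, so their effects cannot be told apart.

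D-type cyclins bind CDK4 and CDK6, and the active kinases phosphorylate the retinoblastoma protein, which then releases E2F transcription factors to switch on genes for S phase. The INK4 inhibitors, among them the products of Cdkn2c and Cdkn2d, bind CDK4 and CDK6 directly, whereas the CIP/KIP inhibitors, among them the products of Cdkn1a and Cdkn1b, act on a wider range of cyclin-kinase complexes and can also help D cyclins assemble with their kinases. In mice, loss of all D-type cyclins impairs blood formation in the embryo, loss of Cdkn2c expands stem cells, and Cdk6 is needed for the expansion of progenitors and leukaemic cells.

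Promoter sequences are shown for the 2 kinases, called in opposite directions in T2F3 MPP (for Cdk4 a call lost in many settings), and for the 2 INK4 genes. They are the 250 bases upstream of the transcription start in RefSeq on GRCm38.p6, which is not the mm9 build named in the submitters' processing notes. Capitals mark the E-box CACGTG, a site that MYC can bind, in the kinases, and the SP1 motif GGGCGG on either strand (CCGCCC where it lies on the other one) in the INK4 genes.
Cdk4 (chr10:127063285-127063534, plus strand): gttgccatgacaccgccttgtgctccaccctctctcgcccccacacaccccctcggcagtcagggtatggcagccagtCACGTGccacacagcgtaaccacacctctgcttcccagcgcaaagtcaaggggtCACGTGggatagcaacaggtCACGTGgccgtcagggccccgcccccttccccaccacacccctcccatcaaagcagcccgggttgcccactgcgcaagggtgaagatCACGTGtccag
Cdk6 (chr5:3343643-3343892, plus strand): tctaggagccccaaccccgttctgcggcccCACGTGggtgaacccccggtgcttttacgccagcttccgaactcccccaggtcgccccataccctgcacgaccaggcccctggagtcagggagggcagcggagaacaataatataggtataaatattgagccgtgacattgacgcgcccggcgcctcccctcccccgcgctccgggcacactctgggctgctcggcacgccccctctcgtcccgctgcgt
Cdkn2c (chr4:109666757-109667006, minus strand): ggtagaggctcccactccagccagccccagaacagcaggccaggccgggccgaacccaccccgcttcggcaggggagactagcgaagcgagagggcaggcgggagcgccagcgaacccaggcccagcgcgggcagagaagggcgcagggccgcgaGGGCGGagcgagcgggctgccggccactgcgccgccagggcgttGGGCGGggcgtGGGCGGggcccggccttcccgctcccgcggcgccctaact
Cdkn2d (chr9:21291210-21291459, minus strand): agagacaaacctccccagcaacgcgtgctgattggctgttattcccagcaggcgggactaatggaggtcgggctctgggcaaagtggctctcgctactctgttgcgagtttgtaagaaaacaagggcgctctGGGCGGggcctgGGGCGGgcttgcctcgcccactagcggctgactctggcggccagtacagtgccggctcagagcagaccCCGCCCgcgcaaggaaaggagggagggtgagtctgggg

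The Cdk4 window holds 4 E-boxes, starting at -172, -118, -98 and -11 from the transcription start, and the Cdk6 window holds 1, at -220. Over all 32851 RefSeq promoter windows of this length, 6.02% hold at least 1 CACGTG and 7 windows (0.0213%) hold at least 4. Cdkn2c carries 3 copies of GGGCGG at -95, -51 and -40, and Cdkn2d carries 3 at -118, -106 and -38. At least 3 copies are found in 8.47% of windows, and at least 1 copy in 32.7%. Windows were available for 7 members and 10 transcription starts in all. The printed Cdk4 window also holds GGGCGG, at -80 on the other strand and without capitals. Outside the printed windows, GGGCGG stands in the second window of Cdkn1a, in Cdkn1b and in both windows of Ccnd3, but not in the second window of Cdkn2c. CCAAT, the NF-Y motif found in 33.8% of all windows, stands in Cdkn1b, in Ccnd3 and, on the other strand of the printed window (attgg), in Cdkn2d. The E2F motifs TTTCGCGC (0.256% of all windows) and TTTGGCGC (0.417%) and the STAT motif TTCNNNGAA (7.02%) were in none of the members' windows, and the FOXO motif TGTTTAC (3.17%) was in 1, of Ccnd3. No printed E-box overlaps a GGGCGG. A match of letters describes the window and shows no binding.

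The libraries were checked before the members were read. Tet2, for which a value over the whole gene cannot show whether part of it was deleted, differed by -0.04 in MPP (T2F3 minus WT, log2, limma adjusted p = 0.783) and by 0.06 in GMP (adjusted p = 0.762). Flt3 differed by -0.06 in MPP (adjusted p = 0.685) and by 1.28 in GMP (adjusted p = 8.23e-07). The difference of its genotype effects, GMP minus MPP, was 1.34 (adjusted p = 0.000466). Of the sorting markers, Fcgr3, which encodes CD16, lay between 10.27 and 11.58 in GMP libraries and between 8.71 and 9.15 in MPP libraries, and Slamf1, which encodes CD150, was at most 3.10 everywhere. Ly6a, which encodes Sca-1, lay between 8.18 and 8.52 in T2F3 MPP and between 7.53 and 7.90 in WT MPP. It lay between 7.45 and 7.69 in T2F3 GMP, which overlapped WT MPP, and between 6.97 and 7.33 in WT GMP. Kit lay between 11.27 and 11.45 in T2F3 MPP and between 12.12 and 12.41 in WT MPP, and Cd48 between 11.39 and 11.60 in T2F3 MPP and between 9.76 and 10.09 in WT MPP. Markers of some other cell types moved with genotype. The log2 of the summed values of 8 dendritic cell genes ran from 15.03 to 15.91 in T2F3 MPP and from 12.22 to 13.15 in WT MPP, and from 14.63 to 14.83 in T2F3 GMP and from 11.58 to 11.89 in WT GMP. The sum of 8 monocyte and macrophage genes ran from 13.75 to 14.22 in T2F3 MPP and from 12.64 to 12.96 in WT MPP, and from 14.87 to 15.85 in T2F3 GMP and from 14.26 to 14.78 in WT GMP. The sum of 8 erythroid genes, of which Hbb-bt is listed at 0 in all libraries, ran from 7.37 to 7.53 in T2F3 MPP and from 9.86 to 10.37 in WT MPP, and from 7.32 to 7.45 in T2F3 GMP and from 8.51 to 9.59 in WT GMP. The sum of 7 stem and multipotent cell genes ran from 11.15 to 11.81 in T2F3 MPP and from 12.07 to 12.31 in WT MPP. Its ranges overlapped in GMP. That of 5 basophil and mast cell genes ran from 9.35 to 9.53 in T2F3 MPP and from 9.82 to 10.28 in WT MPP. In GMP it ran from 9.56 to 10.57 in T2F3 and from 11.83 to 12.76 in WT. The sum of 5 megakaryocyte genes ran from 8.81 to 9.49 in T2F3 MPP and from 9.88 to 10.15 in WT MPP. In GMP it ran from 8.71 to 8.73 in T2F3 and from 9.68 to 10.23 in WT. For 7 B lymphoid genes it ran from 8.30 to 8.57 in T2F3 MPP and from 8.86 to 9.35 in WT MPP. For 5 GMP granule genes the MPP ranges were 15.89 to 16.14 in T2F3 and 16.19 to 16.27 in WT. Both of these sums overlapped in GMP. The sums of late neutrophil genes and of T and NK genes overlapped between genotypes in both populations. In such bulk samples, fewer cells of a type and less RNA per cell cannot be told apart, and the part of these cell types in the differences given here was not tested. A few GMP libraries stood apart. The median deviation of 72 ribosomal protein genes from the other libraries of the group was 0.812 in T2F3 GMP 2, -0.626 in T2F3 GMP 3 and 1.078 in WT GMP 1 (log2), while no MPP library was more than 0.069 from its group. Where the ribosomal protein level is used as a covariate below, its slope was shared by all libraries and rests mainly on these GMP libraries. In MPP that slope is applied to the difference between genotypes. The covariate cannot separate ribosomal level from genotype there, so calls lost or gained with it in MPP do not settle whether a call is robust. No libraries were identical.

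The genotypes were first compared in multipotent progenitors. Of the 10 members, 3 rose in T2F3 MPP, namely the inhibitors Cdkn1a and Cdkn2c and the kinase Cdk4, and 1 fell, the kinase Cdk6. Over all 12133 genes tested, 20.7% rose and 19.6% fell in this comparison, so calls were common throughout the table. The members' median difference was 0.243 (log2), against -0.0153 for all genes tested. When each library was centred on its median, 40.2% of the table's calls were rises, against 51.3% without centring.

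Cdkn1a encodes p21, a CIP/KIP inhibitor known as a target of p53. Its log2 values were 7.48, 7.38 and 7.42 in T2F3 MPP, against 6.83, 6.73, 6.54 and 6.79 in WT MPP. All T2F3 libraries lay above all WT libraries, and the T2F3 values lay close together. The difference was 0.71 ± 0.14 (log2, SE), a 1.63-fold higher level in T2F3, with a limma adjusted p of 0.00112. Cdkn1b encodes p27, the CIP/KIP inhibitor linked to quiescence, and stood at 9.21, 9.46 and 9.14 in T2F3 MPP, against 8.97, 9.17, 8.98 and 8.95 in WT MPP. The ranges overlapped through WT MPP 3, and the difference of 0.26 ± 0.15 did not pass the threshold (adjusted p = 0.163). It passed with the MPP libraries fitted alone (adjusted p = 0.0312), and was -0.09 with the ribosomal protein level as a covariate (adjusted p = 0.589).

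The INK4 gene Cdkn2c, which encodes p18, had values of 8.74, 8.997 and 8.83 in T2F3 MPP, against 8.48, 8.53, 8.32 and 8.32 in WT MPP. The groups did not overlap, and the difference was 0.45 ± 0.088 (1.36-fold, adjusted p = 0.00122). Cdkn2d, which encodes the INK4 protein p19, had values of 8.96, 9.52 and 9.12 in T2F3 MPP, against 8.92, 8.73, 8.67 and 8.87 in WT MPP. Its groups did not overlap either, but T2F3 MPP 1 lay only slightly above the highest WT library. Its difference of 0.40 ± 0.17 missed the threshold (adjusted p = 0.0643), and passed it without T2F3 MPP 1 (0.52, adjusted p = 0.0388) or with the MPP libraries fitted alone (adjusted p = 0.0165). All 4 inhibitors thus had a higher mean in T2F3 MPP, and the differences of Cdkn1a and Cdkn2c were past the threshold.

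**Figure D1:**
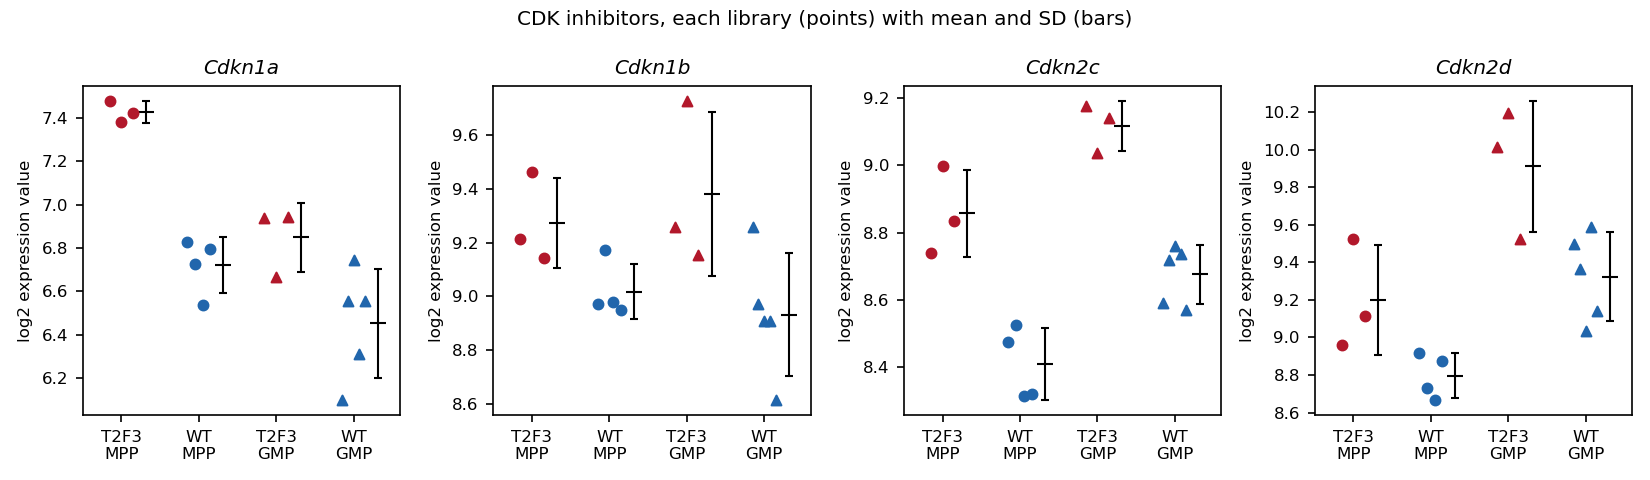
Log2 expression values of the 4 inhibitors in each library (points, circles for MPP and triangles for GMP, red for T2F3 and blue for WT), with the group mean and SD (bars, n = 3, 4, 3 and 5 from left to right). Cdkn2c is separated by genotype in both populations, and Cdkn1a in MPP.

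The kinases moved in opposite directions. Cdk6 stood at 13.31, 12.99 and 13.15 in T2F3 MPP, against 13.80, 13.89, 13.68 and 13.82 in WT MPP. Every T2F3 library was below every WT library, and the difference was -0.65 ± 0.15 (adjusted p = 0.00453), a 1.57-fold lower level in T2F3. Cdk4 read 11.91, 12.02 and 12.07 in T2F3 MPP, against 11.80, 11.59, 11.72 and 11.72 in WT MPP, again without overlap but with the groups closer to each other. The rise of Cdk4 was 0.29 ± 0.11 (1.23-fold, adjusted p = 0.0401) and was the least firm call of this comparison. It did not pass without T2F3 MPP 2 (adjusted p = 0.11), T2F3 MPP 3 (0.132), WT MPP 3 (0.104), WT MPP 4 (0.0681) or WT MPP 5 (0.0674), or with no filter on low values (0.0586), median centring (0.0812), quantile normalization (0.0863) or the ribosomal protein level as a covariate (0.178 log2, adjusted p = 0.22).

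Within each library the gap between the kinases can be followed directly, from the same values as the calls above. Cdk6 minus Cdk4 was 1.397, 0.971 and 1.072 (log2) in T2F3 MPP, against 1.999, 2.292, 1.958 and 2.094 in WT MPP. The gap was narrower in all 3 T2F3 libraries than in any WT library. It was 1.416, 1.409 and 1.736 in T2F3 GMP, against 1.176, 1.292, 2.070, 1.706 and 2.007 in WT GMP, where the ranges overlapped and the WT values were widely spread. The gap is not a ratio of transcript numbers, because the values are not per transcript length.

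D cyclins and Rb1 did not pass the threshold in this comparison. Ccnd1, the D cyclin best known as a target of growth factor signalling, was 8.51, 9.40 and 9.10 in T2F3 MPP, against 8.89, 8.63, 8.60 and 8.97 in WT MPP, so that the T2F3 libraries lay on both sides of the WT range. The difference was 0.23, with a 95% interval from -0.20 to 0.66 (adjusted p = 0.368). Ccnd2, a D cyclin induced by cytokines in blood cells, differed by 0.10 (interval -0.31 to 0.50, adjusted p = 0.696), and Ccnd3, which developing lymphocytes and red cells need, by -0.07 (interval -0.37 to 0.22, adjusted p = 0.69). Rb1 lay between 8.55 and 8.97 in T2F3 MPP and between 8.55 and 8.95 in WT MPP (-0.04, interval -0.29 to 0.22, adjusted p = 0.808). These intervals hold differences of up to 0.66 for Ccnd1 and do not show that the levels were alike. The signs of Ccnd2, Ccnd3 and Rb1 changed with the processing, and with the ribosomal protein level as a covariate Ccnd2 (0.58, adjusted p = 0.00853) and Ccnd3 (0.28, adjusted p = 0.0357) passed as higher in T2F3. The slope of that covariate rests mainly on GMP libraries.

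**Figure D2:**
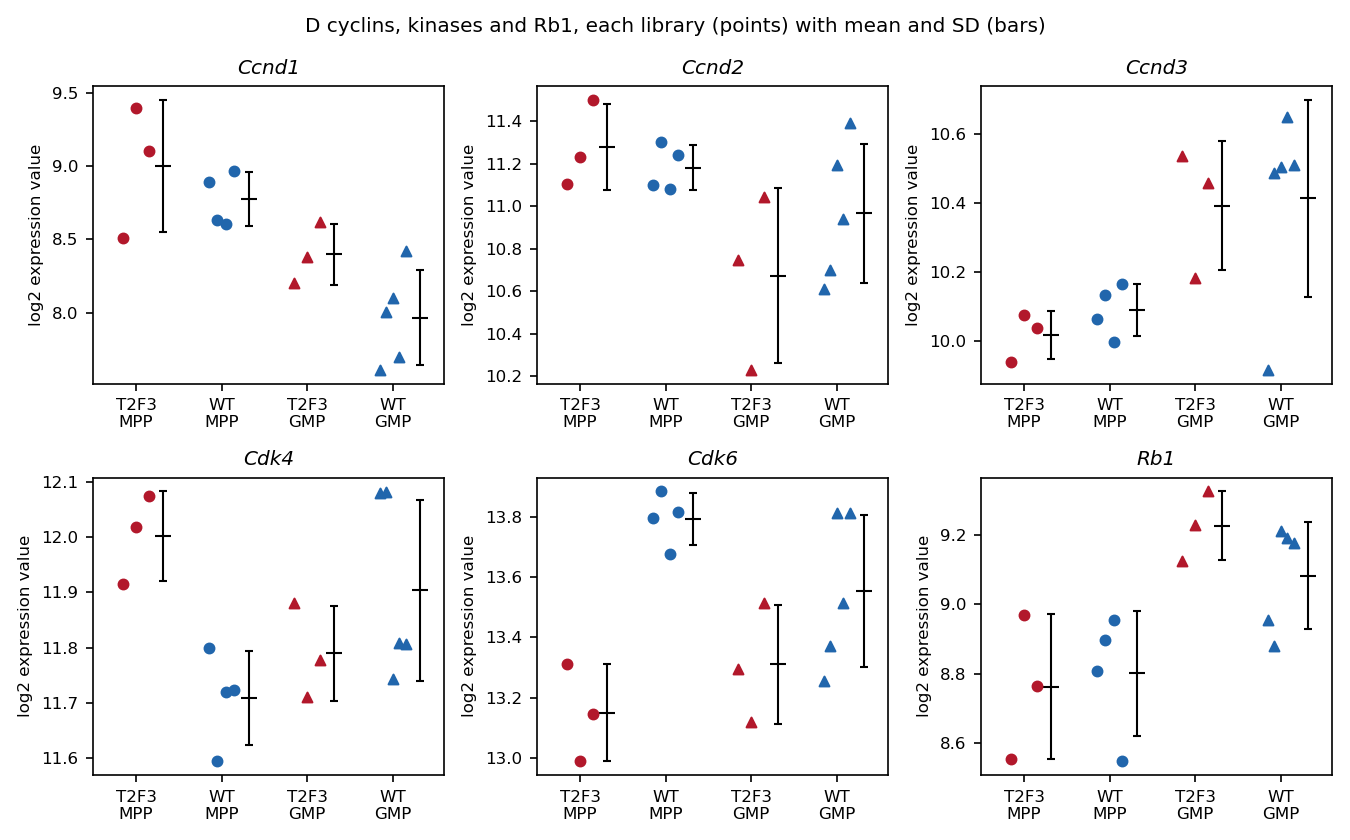
Log2 expression values of the D cyclins, the kinases and Rb1 in each library (points, circles for MPP and triangles for GMP, red for T2F3 and blue for WT), with the group mean and SD (bars, n = 3, 4, 3 and 5 from left to right). Cdk6 is below WT in all 3 T2F3 MPP libraries, and Cdk4 above it.

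The same genotype comparison was made in granulocyte-macrophage progenitors. There 3 members rose in T2F3, all of them inhibitors (Cdkn1b, Cdkn2c and Cdkn2d), and none fell. In the table as a whole, 9.25% of genes rose and 6.04% fell. The members' median difference was 0.27, against -0.0192 for all genes tested. By limma, 5 members had an unadjusted p under 0.05, the other two being Cdkn1a and Ccnd1, both with higher means in T2F3.

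Cdkn2c was at 9.18, 9.03 and 9.14 in T2F3 GMP, against 8.59, 8.72, 8.76, 8.74 and 8.57 in WT GMP. The groups did not overlap, and the WT values lay close together. The difference was 0.44 ± 0.084 (SE, 1.36-fold, adjusted p = 0.00168), close to the 0.45 of MPP, and it passed the threshold in both populations under every alternative tried. Cdkn2d was at 10.02, 10.19 and 9.52 in T2F3 GMP, against 9.49, 9.36, 9.03, 9.59 and 9.14 in WT GMP. Only T2F3 GMP 3 fell within the WT range. Cdkn2d rose by 0.59 ± 0.16 (1.502-fold, adjusted p = 0.0203), but the call was lost without T2F3 GMP 1 (adjusted p = 0.076), T2F3 GMP 2 (0.13) or WT GMP 5 (0.0506), without both T2F3 GMP 2 and WT GMP 1 (0.0716), and with the GMP libraries fitted alone (0.06).

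Cdkn1b was at 9.26, 9.73 and 9.15 in T2F3 GMP, against 9.26, 8.97, 8.91, 8.91 and 8.61 in WT GMP. Its highest value in each group was in the library with raised ribosomal protein genes, T2F3 GMP 2 and WT GMP 1. The rise was 0.45 ± 0.14 (1.36-fold, adjusted p = 0.0389). It was 0.27 (adjusted p = 0.252) without T2F3 GMP 2, and was also lost without T2F3 GMP 1 (0.0514) or any of WT GMP 2 to 5 (0.0622, 0.0705, 0.0681 and 0.0917), and with GMP libraries fitted alone (0.12). Cdkn1a was at 6.94, 6.67 and 6.94 in T2F3 GMP, against 6.10, 6.56, 6.75, 6.31 and 6.56 in WT GMP, with WT GMP 3 above T2F3 GMP 2. Its difference of 0.40 ± 0.13 missed the threshold narrowly (adjusted p = 0.053), and it passed without T2F3 GMP 2 (0.49, adjusted p = 0.0474) or WT GMP 3 (0.47, adjusted p = 0.0254), without both libraries that stood apart (0.0333) and with the ribosomal protein level as a covariate (0.00233).

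Among the cyclins, Ccnd1 was at 8.20, 8.38 and 8.62 in T2F3 GMP, against 7.61, 8.00, 8.10, 7.70 and 8.42 in WT GMP. Only WT GMP 5 reached the T2F3 range, and the difference of 0.43 (95% interval 0.02 to 0.84) had an adjusted p of 0.143. Ccnd2 was at 10.75, 10.23 and 11.04 in T2F3 GMP, against 10.61, 10.70, 11.19, 10.94 and 11.39 in WT GMP. The T2F3 and WT values of Ccnd2 were interleaved (-0.29, interval -0.68 to 0.09, adjusted p = 0.297). Ccnd3 differed by -0.02 (interval -0.30 to 0.26), Cdk4 by -0.11 (interval -0.33 to 0.10), Cdk6 by -0.24 (interval -0.56 to 0.07) and Rb1 by 0.14 (interval -0.10 to 0.39), none past the threshold. Cdk6 lay at 13.30, 13.12 and 13.51 in T2F3 GMP, against 13.26, 13.37, 13.81, 13.51 and 13.81 in WT GMP.

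**Figure D3:**
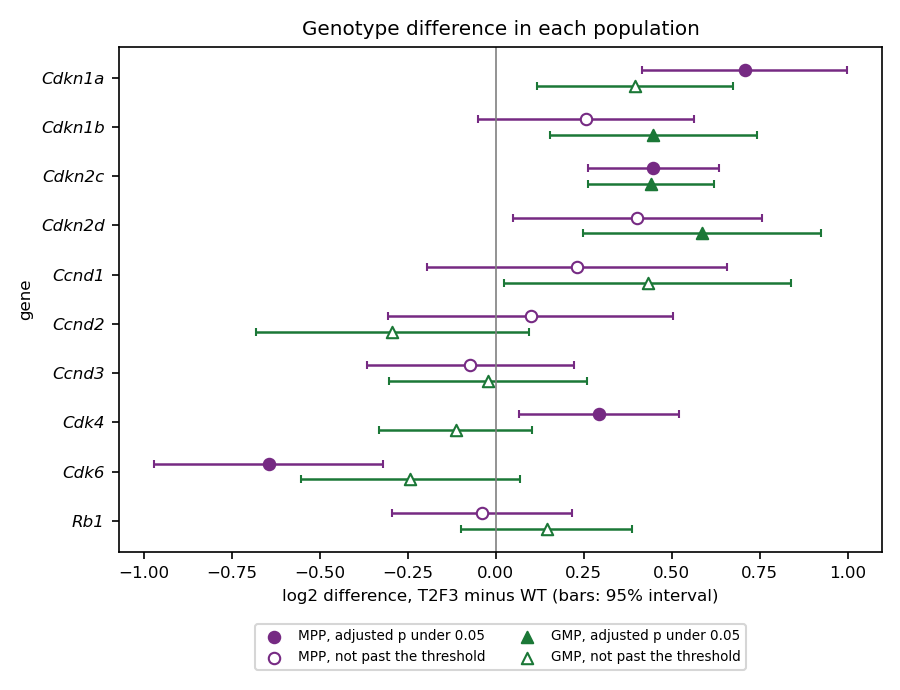
Log2 difference, T2F3 minus WT, of each member in MPP (purple circles) and GMP (green triangles), with 95% intervals as bars. Filled symbols had an adjusted p under 0.05. All 4 inhibitors and Ccnd1 lie to the right of 0 in both populations, and Cdk6 and Ccnd3 lie to the left in both.

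Whether the genotype acted differently in the populations was tested as a difference of the 2 effects, GMP minus MPP. By limma no member passed, and 1 had an unadjusted p under 0.05. Of all genes tested, 1.38% had a positive and 0.882% a negative difference past the threshold. The member with an unadjusted p under 0.05 was Cdk4 (-0.41 ± 0.15, limma adjusted p = 0.156), whose means were higher in T2F3 in MPP and lower in GMP. For Cdk6 the difference of effects was 0.40 ± 0.21 (adjusted p = 0.308) and for Cdkn1a -0.31 ± 0.19 (adjusted p = 0.378). Calls in 1 population and not in the other are therefore not shown to differ between them. With the ribosomal protein level as a covariate, Ccnd2 passed (-0.70, adjusted p = 0.0206), against -0.39 (adjusted p = 0.422) without it.

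The next comparisons followed the step from multipotent to granulocyte-macrophage progenitors within each genotype, which share no libraries with each other but reuse the values given above. In T2F3, Cdkn2d and Rb1 rose in GMP relative to MPP, and Cdkn1a and Ccnd2 fell. Among all genes tested 10.5% rose and 11.7% fell. In WT, Cdkn2c, Cdkn2d, Ccnd3 and Rb1 rose and Ccnd1 fell, where 25.4% of all genes rose and 23.2% fell (42.2% of calls were rises with median centring, against 52.2% without). The members' median was 0.134 in T2F3 and 0.0543 in WT, against 0.00704 and 0.0312 for all genes tested.

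Cdkn2d had a mean of 9.91 ± 0.35 in T2F3 GMP and 9.20 ± 0.29 in T2F3 MPP (SD, n = 3 each), and the highest mean of the 4 groups was in T2F3 GMP. The rise was 0.71 ± 0.18 in T2F3 (SE, adjusted p = 0.00784) and 0.53 ± 0.15 in WT (adjusted p = 0.00733), where the means were 9.32 ± 0.23 in GMP (SD, n = 5) and 8.80 ± 0.12 in MPP (SD, n = 4). The order of its means was T2F3 GMP, WT GMP, T2F3 MPP and WT MPP, and the ranges of neighbours in this order overlapped except those of T2F3 MPP and WT MPP. In WT the call was lost with the ribosomal protein level as a covariate (0.33, adjusted p = 0.0692). Cdkn2c rose by 0.27 ± 0.077 in WT (adjusted p = 0.0095; 0.0534 after quantile normalization). In T2F3 its difference was of like size, 0.26 ± 0.094, and did not pass (adjusted p = 0.0584), but passed without T2F3 MPP 2 (0.33, adjusted p = 0.0332).

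Cdkn1a went the other way to the INK4 genes. Its mean was 6.85 ± 0.16 in T2F3 GMP and 7.43 ± 0.05 in T2F3 MPP (SD, n = 3 each), a fall of 0.58 on the log2 scale (-0.58 ± 0.15, SE, adjusted p = 0.00865). In WT the difference was -0.27 ± 0.12 (adjusted p = 0.079), which passed without WT GMP 3 (-0.34, adjusted p = 0.0278). The means ran from T2F3 MPP as the highest through T2F3 GMP and WT MPP to WT GMP as the lowest; the 3 groups below T2F3 MPP overlapped with their neighbours. Cdkn1b had no call in this step (0.11, adjusted p = 0.708 in T2F3, and -0.09, adjusted p = 0.604 in WT), and with the ribosomal protein level as a covariate it passed in WT (-0.33, adjusted p = 0.0071).

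Ccnd1 was lower in GMP in both genotypes. The difference was -0.81 ± 0.18 in WT (adjusted p = 0.0013), where the means were 7.97 ± 0.33 in GMP (SD, n = 5) and 8.77 ± 0.18 in MPP (SD, n = 4). In T2F3 it was -0.61 ± 0.22 and missed the threshold (adjusted p = 0.0545), but passed without T2F3 MPP 1 (-0.85, adjusted p = 0.00803) or T2F3 GMP 3 (-0.71, adjusted p = 0.0442). Ccnd2 fell in T2F3 (-0.61 ± 0.20, adjusted p = 0.0423), with the lowest value in T2F3 GMP 2. Without that library the difference was -0.39 (adjusted p = 0.182), and the call was also lost without T2F3 MPP 2 (0.0777), T2F3 MPP 3 (0.164) or T2F3 GMP 1 (0.079), with a minimum mean of 6 (0.0501) and with the T2F3 libraries fitted alone (0.076). In WT the difference of Ccnd2 was -0.21 ± 0.17 (adjusted p = 0.305).

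Ccnd3 rose in WT GMP (0.32 ± 0.12, adjusted p = 0.0378), against 0.37 ± 0.15 in T2F3 (adjusted p = 0.0858), which passed without T2F3 GMP 2 (0.48, adjusted p = 0.0396). WT GMP 1, at 9.92, was below all 4 WT MPP libraries, which lay between 9.9985 and 10.17, and the other WT GMP libraries lay between 10.49 and 10.65. The WT call was lost without any single other library of these groups (adjusted p from 0.051 to 0.0968), with median centring (0.106), quantile normalization (0.247) and the WT libraries fitted alone (0.056). Rb1 rose in both steps, by 0.46 ± 0.13 in T2F3 (adjusted p = 0.0147) and by 0.28 ± 0.11 in WT (adjusted p = 0.0372). T2F3 GMP libraries stood at 9.13, 9.23 and 9.33 and T2F3 MPP libraries at 8.55, 8.97 and 8.76, without overlap. The T2F3 call was lost without T2F3 MPP 1 (0.0823) or T2F3 GMP 3 (0.0555), and the WT call without WT MPP 1 (0.068), WT MPP 5 (0.143), WT GMP 3 (0.0802), WT GMP 4 (0.0798) or WT GMP 5 (0.0751), with median centring (0.109) and with quantile normalization (0.165).

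Neither kinase passed in this step. Cdk4 differed by -0.21 ± 0.11 in T2F3 (adjusted p = 0.221) and by 0.19 ± 0.094 in WT (adjusted p = 0.0986). Cdk6 differed by 0.16 ± 0.16 in T2F3 (adjusted p = 0.569) and by -0.24 ± 0.14 in WT (adjusted p = 0.15), and the WT value became -0.72 (adjusted p = 0.00518) after quantile normalization.

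**Figure D4:**
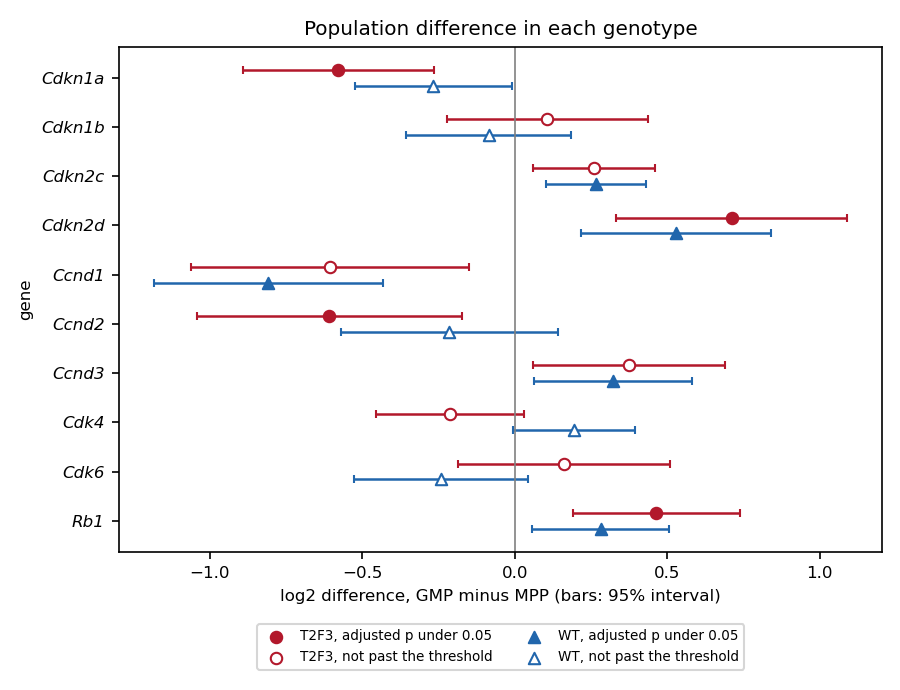
Log2 difference, GMP minus MPP, of each member in T2F3 (red circles) and WT (blue triangles), with 95% intervals as bars. Filled symbols had an adjusted p under 0.05. Cdkn2c, Cdkn2d, Ccnd3 and Rb1 lie to the right of 0 in both genotypes, and Cdkn1a, Ccnd1 and Ccnd2 lie to the left in both.

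Other genes of the pathway were read from lists by role, shown beside the members' results. Of 6 other inhibitors and pocket proteins, 3 were too low to test. Cdkn2a and Cdkn2b, which encode further INK4 inhibitors, were at most -1.36 and 0.30 in any library, and Cdkn1c, which encodes the CIP/KIP inhibitor p57, was at most 4.41. The 3 tested, Cdkn3, Rbl1 and Rbl2, had no call for genotype in either population (limma, 1 with an unadjusted p under 0.05 in each). Rbl1, a relative of Rb1, differed by -0.04 in MPP and 0.10 in GMP.

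Of the 10 E2F and DP factors, which act downstream of Rb1, none rose and 5 fell in T2F3 MPP, where 19.6% of all genes tested fell. The lowest p-values were those of E2f8 (-0.61 ± 0.095, adjusted p = 0.000173) and E2f7 (-0.47 ± 0.11, adjusted p = 0.00288), both repressors of the E2F programme, and of the DP gene Tfdp2 (-0.39 ± 0.095, adjusted p = 0.00506). The list's median was -0.313. With the ribosomal protein level as a covariate 3 fell and the median was -0.178. In T2F3 GMP none of the 10 passed, although 8 had an unadjusted p under 0.05 (limma, median -0.219). The number of calls changed without WT GMP 1, where 5 fell and 1 rose. It also changed without both WT GMP 1 and T2F3 GMP 2 (2 fell), with array weights (4 fell), with the covariate (1 rose and 1 fell) and without WT GMP 4 (1 rose). Calls over all genes tested changed too, to 3759, 2175, 4103, 2791 and 1521 in these settings, against 1855. E2f7 was the gene of these lists whose genotype effect differed between the populations (0.63 ± 0.15, GMP minus MPP, adjusted p = 0.0364), and that call was lost without T2F3 MPP 3 (0.106), WT MPP 1 (0.0825), WT MPP 3 (0.0694), WT MPP 4 (0.059), T2F3 GMP 2 (0.0612), T2F3 GMP 3 (0.111), WT GMP 2 (0.0649) or WT GMP 5 (0.051).

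Of 18 genes of DNA replication, many of them E2F targets, 1 rose and 2 fell in T2F3 MPP, shares below the 20.7% and 19.6% of all genes. Cdt1, a licensing factor, fell (-0.45, adjusted p = 0.0127; 0.0547 without T2F3 MPP 1), as did Cdc6, its partner in licensing (-0.30, adjusted p = 0.0221). Gins2, part of the replicative helicase, rose (0.53, adjusted p = 0.0321). The call of Cdc6 was lost without T2F3 MPP 1 (0.0746), T2F3 MPP 2 (0.0736) or WT MPP 1 (0.0605), and that of Gins2 without T2F3 MPP 2 (0.118), T2F3 MPP 3 (0.0778), WT MPP 3 (0.0706) or WT MPP 5 (0.0691). With the ribosomal protein level as a covariate, whose slope rests mainly on GMP libraries, all 3 calls were lost. The differences were -0.22 for Cdt1 (adjusted p = 0.198), -0.12 for Cdc6 (0.338) and -0.013 for Gins2 (0.934). In T2F3 GMP, where 6.04% of all genes fell, 1 gene of the list passed, Cdc6 (-0.36, adjusted p = 0.014). Its difference was -0.28 (0.0923) without T2F3 GMP 2, and its adjusted p was 0.0624 with the GMP libraries fitted alone. The number that fell in GMP was 5 without WT GMP 1, 3 with array weights and 2 with the covariate. Over all genes tested, 3759, 4103 and 2791 were called in these settings, against 1855. None of the 8 G1 to S cyclins and kinases passed in MPP (limma, 2 with an unadjusted p under 0.05) or in GMP (1 under 0.05). In MPP 3 rose and 2 fell with array weights, and 3 rose and 1 fell with the MPP libraries fitted alone, and in GMP 2 rose and 1 fell without WT GMP 1. Calls over all genes in MPP were then 7795 and 6551, against 4889, and in GMP 3759, against 1855.

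Of 16 mitosis genes, 1 rose and 3 fell in T2F3 MPP, where 20.7% of all genes rose and 19.6% fell. Mybl2, which encodes B-MYB, fell in both populations, by 0.62 in MPP (-0.62 ± 0.10, adjusted p = 0.000275) and by 0.69 in GMP (-0.69 ± 0.098, adjusted p = 0.000104). It was the 1 mitosis gene that passed in GMP, where 9.25% of all genes rose and 6.04% fell. With array weights 3 mitosis genes rose and 1 fell in GMP, where 4103 of all genes were then called, against 1855. Foxm1, which encodes a driver of G2 and mitosis genes, fell in MPP (-0.43, adjusted p = 0.00412; -0.24 and 0.0616 with the ribosomal protein level as a covariate). Ccnb1, a mitotic cyclin, rose in MPP (0.37, adjusted p = 0.0255), a call lost without T2F3 MPP 2 (0.104), T2F3 MPP 3 (0.0817), WT MPP 3 (0.0548) or WT MPP 5 (0.0584), and with the covariate, where its difference was 0.081 (0.552). The list's median was -0.0843 in MPP and -0.0104 in GMP, and with the covariate 0.0232 and 0.00935.

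A list of 10 transcription factors known to act on the members was read as well, and 8 of the 10 fell in T2F3 MPP (19.6% of all genes), with a list median of -0.502. Myc, which can activate Cdk4 and repress Cdkn1a, fell by 0.75 (-0.75 ± 0.16, adjusted p = 0.00242). Trp53, which encodes p53, also fell in MPP (-0.43, adjusted p = 0.0177), where its target Cdkn1a rose, and did not pass in GMP (-0.31, adjusted p = 0.109). Foxo4 (-0.56, adjusted p = 0.0029) and Foxo3 (-0.65, adjusted p = 0.00317) encode forkhead factors that can activate Cdkn1b. With the ribosomal protein level as a covariate 2 of the 10 fell, and Foxo4 (-0.25, adjusted p = 0.0553) and Foxo3 (-0.31, adjusted p = 0.0697) no longer passed. In T2F3 GMP the repressor Gfi1 fell (-0.63 ± 0.10, adjusted p = 0.000422), as did Myc (-0.51 ± 0.16, adjusted p = 0.0366). The GMP call of Myc was lost without T2F3 GMP 1 (0.101), T2F3 GMP 2 (0.162), WT GMP 2 (0.073), WT GMP 4 (0.0617) or WT GMP 5 (0.0874), and with the GMP libraries fitted alone (0.0722). Without WT GMP 1, 5 of the 10 fell, where 3759 of all genes were called, against 1855.

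Of 12 genes for the turnover of CIP/KIP inhibitors and D cyclins, 3 rose and 1 fell in T2F3 MPP, where 20.7% and 19.6% of all genes did. The number that rose was 2 without T2F3 MPP 1 and 0 without any other single MPP library; 1 rose and 3 fell with median centring, and 1 rose and 0 fell with the ribosomal covariate. Ambra1, an adaptor for the degradation of D cyclins, fell (-0.28, adjusted p = 0.0119; -0.16 and 0.127 with the ribosomal covariate). Cks1b, a cofactor in p27 degradation (0.42, adjusted p = 0.0354), and the ubiquitin ligase subunit Rbx1 (0.58, adjusted p = 0.0364) rose. With the ribosomal covariate their differences were 0.03 (adjusted p = 0.877) and -0.07 (adjusted p = 0.509), and both calls were also lost without most single MPP libraries. In GMP, Cul4a, a ligase scaffold, fell (-0.24, adjusted p = 0.0286), a call that held only without T2F3 GMP 1 or WT GMP 1 when single GMP libraries were left out (adjusted p otherwise from 0.051 to 0.144), and that was lost with no filter on low values (0.0625).

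**Figure D5:**
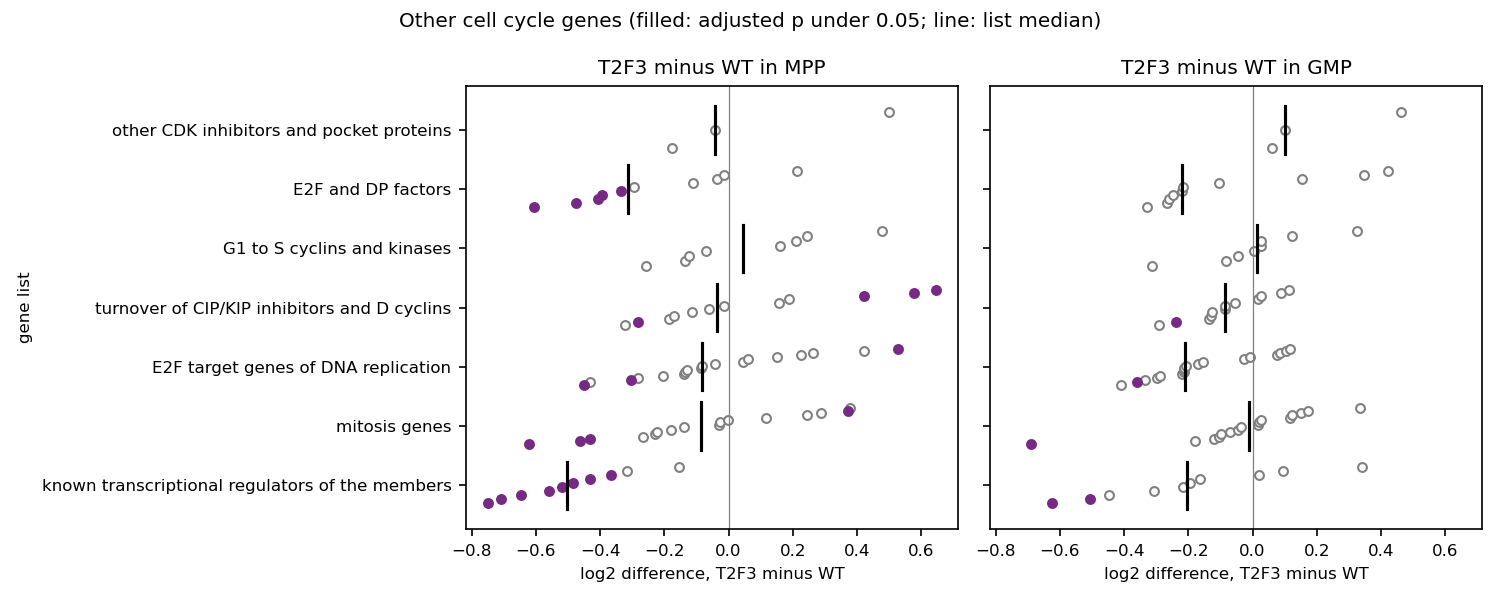
Log2 difference, T2F3 minus WT, of each tested gene of 7 lists in MPP (left) and GMP (right), with filled points for adjusted p under 0.05 and a line at each list's median. The regulators and the E2F and DP factors lie mostly to the left of 0 in MPP, where 8 and 5 of 10 fell.

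Many mitosis genes were higher in GMP than in MPP in both genotypes. In T2F3, 11 of 16 rose and none fell, where 10.5% of all genes rose, with the lowest p for Foxm1 (0.61, adjusted p = 0.000484), and in WT 10 of 16 rose and none fell, where 25.4% of all genes rose, with the lowest p for Mybl2 (0.64, adjusted p = 2.28e-05). The T2F3 count was 4 without T2F3 MPP 1 or T2F3 GMP 1, 7 without T2F3 GMP 3, 4 with the T2F3 libraries fitted alone and 6 after quantile normalization, and the WT count was 9 to 12 with single libraries left out. Of the replication genes 3 of 18 rose in T2F3 and 8 of 18 in WT (2 to 4 and 6 to 10 with single libraries left out, 9 and 15 without both WT GMP 1 and T2F3 GMP 2, and in WT 4 after quantile normalization), with Cdc45, a helicase component, up by 0.65 in T2F3 (adjusted p = 0.000108) and by 0.74 in WT (adjusted p = 1.5e-06). Without both WT GMP 1 and T2F3 GMP 2, 3838 of all genes were called in T2F3 and 7037 in WT, against 2690 and 5899. Of the G1 to S genes 4 of 8 rose in T2F3 and 3 of 8 in WT. The T2F3 count was 1 without T2F3 MPP 1, T2F3 GMP 1 or T2F3 GMP 3, 2 without T2F3 MPP 2, 1 with the T2F3 libraries fitted alone and 2 after quantile normalization, and the WT count was 1 without WT MPP 5 and with median centring. Cdc25a, the phosphatase that activates CDK2, rose by 0.40 in T2F3 (adjusted p = 0.0229) and by 0.46 in WT (adjusted p = 0.00117), and the T2F3 call was lost without T2F3 MPP 1 (0.0521), T2F3 MPP 2 (0.0843), T2F3 GMP 1 (0.0882) or T2F3 GMP 3 (0.0822). E2f8 rose by 0.87 in T2F3 (adjusted p = 8.55e-06) and by 0.51 in WT (adjusted p = 9.82e-05). The calls of Cdkn2d and Rb1 in this step thus stood beside rises of mitosis genes in the same libraries.

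For the 3 members with the widest range of group means, the genes with the most similar pattern were sought among 11329 genes, as the root-mean-square difference over all 15 libraries after centring each gene on its own mean. This is a description of profiles over libraries that share their groups. For Cdkn2d, whose group means spanned 1.11, they were Dhrs7 (0.157), Glipr2 (0.172) and Lst1 (0.176), where Cdkn2d itself varied by 0.434 around its mean. For Ccnd1 (span 1.04, own variation 0.485) they were Bcl2 (0.177), Il12rb2 (0.195) and Sema4d (0.202). For Cdkn1a (span 0.97, own variation 0.381) they were Mdfic (0.127), St3gal2 (0.136) and Reps1 (0.138).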

How the data were processed

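The authors deposited 1 table of regularized log2 expression values for 24424 genes in 15 libraries, per the labels of its columns and the table's name. A stranded mRNA kit was used, per the labels' protocols. STAR, Bowtie, HOMER, DESeq2 and mm9 stand in the submitters' processing notes with no versions or roles, and the counting settings are not given in the sources used here. The regularized log draws low values together, which understates the differences of genes with few reads, and it is not scaled to transcript length. Read counts are not part of the table, so the depth of a library is not known and counting error is left out. The 41 samples of hydroxymethylcytosine and input, of 56 in the series, were not analysed here.

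Gene symbols and promoters came from RefSeq tables of GRCm38.p6, in which 24345 of 24424 Entrez IDs were found. A limma model (version 3.58.1 in R 4.3.3, with the trend and robust options of eBayes) estimated a mean for each group from the 15 libraries and the 12133 genes whose mean was at least 4, and 5 contrasts were taken from it. Tests were two-sided, adjusted by Benjamini-Hochberg over all genes tested in a contrast, with a threshold of 0.05. The model was tested on simulated data with known changes. Settings varied in turn were the filter (none, or a mean of at least 6), a pseudocount of 8, median centring, quantile normalization, the trend and robust options, weights for libraries, fitting the compared groups alone, a block for the replicate number or for genotype and number together, leaving out single libraries or both WT GMP 1 and T2F3 GMP 2, and a covariate holding the mean of 72 ribosomal protein genes. The members and lists were chosen with earlier results of these data known. All 10 members are named, and of each list up to 3 genes with the smallest p among those past the threshold in a contrast. Trp53 is named in addition, because Cdkn1a is a known target of p53. Tables were joined in pandas 2.3.3 with NumPy 2.4.6 (Python 3.11.15), and Matplotlib 3.10.9 drew the figures.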

Additional observations from a re-analysis of the deposited data

Results flagged for a closer look

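Among the 20 sets of WT values examined (10 members in WT MPP and in WT GMP), 2 had a library whose gap to the nearest other library was large for the range of its group; chance gives about 1 in 20. Cdkn1b read 9.17 in WT MPP 3, above the other WT MPP libraries at 8.95 to 8.98. Ccnd3 read 9.92 in WT GMP 1, below the other WT GMP libraries at 10.49 to 10.65. WT GMP 1 is also the library with raised ribosomal protein genes, and the part of that in its Ccnd3 value was not tested.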

How the results depend on the processing

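Depth is unknown, so no limit from read numbers can be given, and groups of 3 to 5 libraries limit the precision. The differences of Cdkn1a, Cdkn2c and Cdk6 in MPP and of Cdkn2c in GMP stayed past the threshold under every alternative run. With array weights 7 members were called in MPP, 5 in GMP and 7 in the T2F3 step. Of 12133 genes, 7795, 4103 and 4389 were called there. With the groups alone 1 member was called in GMP (1180 of all genes). With the ribosomal covariate 1 was called in the difference of effects (964 of all genes) and 7 in the T2F3 step (4249). With single libraries left out 1 to 3 were called in GMP (1174 to 3759 of all genes) and 3 to 5 in the WT step (5115 to 6255). The cause was not tested for any of these.

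With both WT GMP 1 and T2F3 GMP 2 left out, 5 members rose and 1 fell in MPP. In GMP 3 rose, and in the T2F3 step 4 rose and 1 fell. Of 12133 genes, 6695, 2175 and 3838 were then called in these comparisons, against 4889, 1855 and 2690 in the main analysis. Cdkn2d (adjusted p = 0.0411) and Cdkn1b (0.0313) passed in MPP without both libraries. They also passed with the MPP libraries fitted alone (0.0165 and 0.0312). Their differences in both settings were those of the main analysis, 0.40 and 0.26. Only the estimate of the spread changed, which the main model shares over all groups. Same-numbered MPP and GMP libraries of a genotype deviated from their group means with correlations from 0.055 to 0.464, all positive but not all above 0.1. By that cut-off the replicate number was not taken to pair them, and the steps were fitted unpaired. Of 14 libraries, 9 correlated best with their own number, so shared animals are not excluded. The replicate block used the number alone, so T2F3 and WT libraries of the same number shared an effect. In GMP their deviations correlated from -0.326 to 0.517. With this block 3 members were called in MPP, 2 in GMP, 0 in the difference of effects, 5 in the WT step and 5 in the T2F3 step. It ended the calls of Cdk4 in MPP and of Cdkn1b in GMP. Of 12133 genes it called 2732, 1302, 242, 5613 and 2652 in these comparisons, against 4889, 1855, 274, 5899 and 2690 in the main analysis. With it 3 of the 10 E2F and DP factors fell in MPP, none of the 12 turnover genes passed there, and 2 of 8 G1 to S genes rose in the T2F3 step. A block for genotype and number together gave 4854 calls in MPP. Cdkn2c (limma adjusted p = 0.0448) and Ccnd1 (0.037) then passed in the T2F3 step.

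Signs changed only among differences that were not called in the main analysis. With array weights Rb1 in MPP was 0.0078 and Cdk4 in GMP was 0.019, the difference of effects was -0.18 for Ccnd1 and -0.010 for Ccnd3, and the T2F3 step was -0.029 for Cdkn1b. With the replicate block Ccnd3 was 0.00084 in MPP and 0.036 in GMP, and the difference of effects of Cdkn2c was 0.0097. With the ribosomal covariate Cdkn1b was -0.092, Ccnd3 0.28 (adjusted p = 0.0357) and Rb1 0.082 in MPP, Ccnd3 was 0.11 in GMP and -0.18 in the difference of effects, and Ccnd2 was 0.12 in the WT step. After quantile normalization Ccnd3 was 0.020 in GMP, Cdkn2c 0.043 in the difference of effects and Cdk4 -0.070 in the WT step. The difference of effects of Cdkn2c was 0.049 with median centring and 0.014 without WT GMP 1 and T2F3 GMP 2, when Cdkn1b was -0.067 in the T2F3 step. With single libraries left out, in MPP Ccnd2 ran from -0.013 to 0.19 and Rb1 from -0.14 to 0.066, and in GMP Ccnd3 ran from -0.15 to 0.083. The difference of effects then ran from -0.064 to 0.064 for Cdkn2c, from -0.044 to 0.40 for Ccnd1 and from -0.073 to 0.16 for Ccnd3, and the T2F3 step of Cdkn1b from -0.067 to 0.22.

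Whole-table calls moved by over 1.5 times in a few settings. In MPP they numbered 7795 with array weights, and 2859 and 2892 without T2F3 MPP 2 or 3, against 4889. In GMP they numbered 4103 with array weights, 1180 with the groups alone, 1174 without T2F3 GMP 2, 3759 without WT GMP 1 and 2791 with the ribosomal covariate, against 1855. For the difference of effects they ran from 79 to 586 with single libraries left out and were 436 without a filter, 140 with a minimum mean of 6, 1494 with array weights, 1204 without both libraries and 964 with the ribosomal covariate, against 274, and 74.5% were positive with median centring, against 60.9%. In the T2F3 step they numbered 4389 with array weights and 4249 with the covariate, against 2690.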
